A study of Mus musculus with 14 samples.

Results

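The 19 Wnt ligand genes and 15 receptor genes of the mouse (Fzd1 to Fzd10, Lrp5, Lrp6, Ror1, Ror2 and Ryk) were followed through binding maps of p300, RXRα, Sp5 and Zeb2 in embryonic stem cells and gastruloids. The list takes the gene families by name and holds 34 of the 21883 protein-coding genes in RefSeq's annotation of GRCm38. A region was a stretch of overlapping peaks present in both replicate lists of a group, and it was given to the protein-coding gene with the end (start or finish of the gene model) nearest to its strongest summit, up to 100 kb away. By this rule the members received 63 p300 regions in stem cells, 121 p300 regions in gastruloids, 73 RXRα regions in stem cells, and in gastruloids 11 RXRα, 41 Sp5 and 35 Zeb2 regions.

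The 14 chromatin immunoprecipitation (ChIP-seq) libraries came from mouse E14 embryonic stem cells that carry fluorescent reporters for Brachyury and SOX17, and from gastruloids made of such cells. Gastruloids are aggregates, here seeded with 300 cells and collected at 120 h, that lay down a body axis in culture. All gastruloids were given 3 µM CHIR99021, an inhibitor of GSK3 that activates Wnt/β-catenin signalling, after 48 h, so no group stands for gastruloids without an outside Wnt stimulus. The stem cells (mESC) were kept in serum with LIF. p300 carried a V5-miniTurboID tag and was precipitated with a V5 antibody, in 2 mESC and 2 gastruloid libraries. RXRα (2 mESC and 2 gastruloid libraries), Sp5 and Zeb2 (2 gastruloid libraries each) carried an HA-FKBP12F36V degron tag and were precipitated with an HA antibody, in lines of their own. The labels place the tags at the endogenous genes and name no number of clones. 1 input library per cell stage came from the p300 line. Nothing in the labels tells if the replicates of a group were grown separately, so their spread may be technical. Expression was not measured in these files, so the labelled stage could not be checked against marker levels. In a bulk preparation, binding in fewer cells and weaker binding per cell cannot be told apart.

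Wnt proteins are secreted, lipid-modified signals that bind Frizzled receptors. With the coreceptors LRP5 or LRP6 they stabilise β-catenin, which acts on genes through TCF/LEF proteins, while ROR1, ROR2 and RYK serve mainly in signalling that does not use β-catenin. In the mammalian embryo Wnt3 is needed to form the primitive streak, Wnt3a maintains the tail bud, and Wnt5a with ROR2 guides the lengthening of the body axis. p300 is a histone acetyltransferase found at active enhancers and promoters. RXRα is a nuclear receptor that pairs with retinoic acid and other receptors, Sp5 is a Sp-family zinc finger protein that is itself a Wnt target, and Zeb2 is a zinc finger repressor known from epithelial-mesenchymal transition and neural crest.

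The lists differed widely in length, from 3111 usable peaks in the second RXRα gastruloid library to 75346 in the second p300 gastruloid library. p300 lists held 44506 and 35371 peaks in mESC and 63117 and 75346 in gastruloids. The first Zeb2 list held 44310 peaks and the second 12222. The inputs gave 111 and 514 peaks, none of them at a member. A region needs both lists, so counts for gastruloid RXRα and for Zeb2 are set by the short second list, and the first list alone is given beside them. With 2 libraries against 2, an exact permutation test cannot give a p below 0.333, and no test was run: what follows is a description of which peaks were found.

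Most members carried binding in several maps. In gastruloids 31 of 34 members (91.2%) had at least 1 p300 region, against 68.3% of all protein-coding genes, and in mESC 25 (73.5%), against 49.3%. RXRα was found at 29 members (85.3%) in mESC, against 49.4% of all genes. In gastruloids it was found at 9 (26.5%), against 8.74%, and in the first list alone at 31 (91.2%), against 57.7%. Sp5 reached 26 members (76.5%), against 39.9%. Zeb2 reached 21 (61.8%), against 33%, and in its first list alone 33 (97.1%), against 69.1%. The members' share lay above the genome's in every map. Their territory, the stretch of genome in which a member's end is the nearest, is also larger, with a median of 78.2 kb against 46.5 kb for all genes. Pooled over that territory the gastruloid p300 regions numbered 3.82 per 100 kb at the members and 2.50 at all genes, and the Sp5 regions 1.29 and 0.62.

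**Figure D1:**
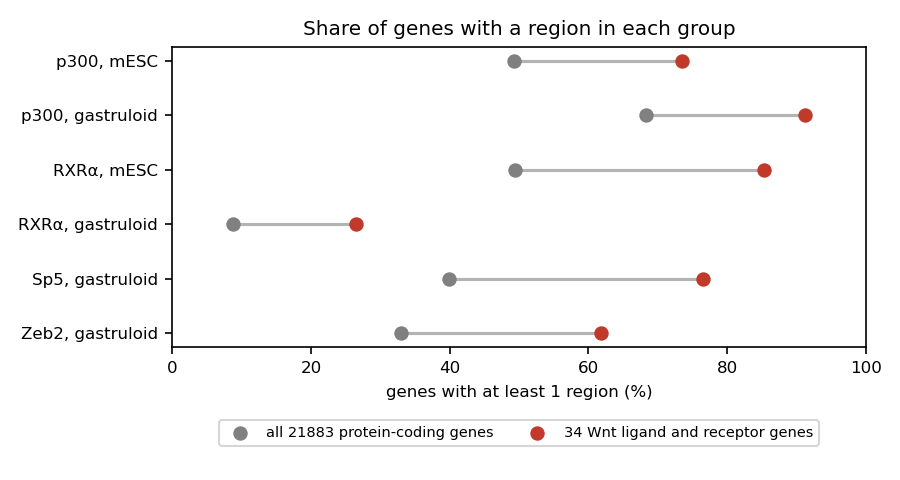
Share of genes with at least 1 region (horizontal axis, percent) in each of the 6 groups (rows), with 1 point for the 34 Wnt ligand and receptor genes and 1 for all 21883 protein-coding genes, joined by a line. The members' point lies to the right in every row, from 26.5% against 8.74% for RXRα in gastruloids to 91.2% against 68.3% for p300 in gastruloids.

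6 members had a region in all 6 maps: the ligand genes Wnt3a and Wnt5b, the Frizzleds Fzd2, Fzd4 and Fzd10, and Ror2. A further 13 had one in 5 maps. Maps per gene were not counted over all genes, so these numbers have no baseline. Fzd6, a Frizzled of planar cell polarity, had no region in any map and no peak in any library. Wnt10b, a canonical ligand, had only a Zeb2 region. It lies at chr15:98775716-98776134 inside the gene, with folds of 7.74 and 5.45 over local background in the replicates. Here and below, fold is the authors' enrichment at the strongest summit, given for replicate 1 and then replicate 2, and it is read only within a list. Ranks follow the higher of the 2 folds, whichever list it comes from. Fragment counts at the summit were recovered from the fold and its p-value.

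Binding at gene starts was seen for many members, and the sequence there can be read. The start table of RefSeq held 24 of the 34 members, with 27 start windows. Wnt5a, Wnt7b, Wnt8a, Wnt10a, Fzd2, Fzd3, Fzd6, Fzd8, Lrp5 and Lrp6 had no entry. Within 1 kb of a start, 13 of the 24 (54.2%) had a gastruloid p300 region, against 43% of the 17491 genes in the table, and 3 (12.5%) an mESC p300 region, against 8.17%. Sp5 was within 1 kb of a start at 13 (54.2%), against 33.3%, and Zeb2 at 8 (33.3%), against 22.2%. RXRα was there at 7 (29.2%) in mESC, against 19.2%, and at 2 (8.33%) in gastruloids, against 4.47%. 13 members is the count for both p300 and Sp5, but Sp5 is the map with the larger gap to all genes.

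Of the 27 windows, each the 250 bases before a start, 11 held a summit, and 7 of these are shown. Their summits were Sp5 at Fzd4, Fzd7, Ror2, Wnt3 and Wnt9b, and Zeb2 at Fzd4, Wnt5b and Wnt9b. p300 had one at Wnt3 and Wnt5b, and RXRα at Wnt16. Not shown are Fzd5 and Wnt3a (Sp5), Wnt9a (p300) and a second Wnt5b start (Sp5 and mESC RXRα). Both regions at that second start were given to another gene, Gm52875, and not to Wnt5b. The printed windows are RefSeq's GRCm38.p6 sequence, 5′ to 3′ on the strand of the gene. Capitals mark 4 short motifs on either strand: GGGCGG (the GC box of Sp proteins), CACCTG (an E-box of the kind Zeb proteins bind), CTTTGA (the TCF/LEF core) and AGGTCA (the half-site of nuclear receptors). Matches may overlap one another. The Fzd4 window is chr7:89404116-89404365 on the plus strand, Fzd7 is chr1:59481897-59482146 on the plus strand, and Ror2 is chr13:53286125-53286374 on the minus strand. Wnt3 is chr11:103773925-103774174 on the plus strand and Wnt9b chr11:103749822-103750071 on the minus strand. Wnt5b, for one of its starts, is chr6:119449387-119449636 on the minus strand and Wnt16 is chr6:22287977-22288226 on the plus strand.
Fzd4: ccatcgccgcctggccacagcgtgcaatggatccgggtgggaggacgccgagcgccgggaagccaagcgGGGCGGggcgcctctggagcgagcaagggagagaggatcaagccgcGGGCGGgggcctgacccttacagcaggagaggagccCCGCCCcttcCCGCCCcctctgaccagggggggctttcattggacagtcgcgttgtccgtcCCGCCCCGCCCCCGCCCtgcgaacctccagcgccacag
Fzd7: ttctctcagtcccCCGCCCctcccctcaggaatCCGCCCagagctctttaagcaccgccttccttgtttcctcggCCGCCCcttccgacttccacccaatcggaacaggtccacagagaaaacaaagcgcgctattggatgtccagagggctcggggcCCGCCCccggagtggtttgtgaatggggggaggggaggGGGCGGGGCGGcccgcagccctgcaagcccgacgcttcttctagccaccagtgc
Ror2: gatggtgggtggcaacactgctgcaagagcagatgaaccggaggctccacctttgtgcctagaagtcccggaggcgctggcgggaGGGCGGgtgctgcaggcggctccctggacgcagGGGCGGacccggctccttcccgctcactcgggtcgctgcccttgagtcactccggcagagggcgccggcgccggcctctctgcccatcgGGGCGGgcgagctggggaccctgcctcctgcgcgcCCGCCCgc
Wnt3: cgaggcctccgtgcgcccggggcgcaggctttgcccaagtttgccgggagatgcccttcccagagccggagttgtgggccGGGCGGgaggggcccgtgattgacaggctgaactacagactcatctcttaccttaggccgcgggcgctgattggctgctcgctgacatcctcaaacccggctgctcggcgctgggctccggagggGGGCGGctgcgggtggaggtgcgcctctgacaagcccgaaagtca
Wnt9b: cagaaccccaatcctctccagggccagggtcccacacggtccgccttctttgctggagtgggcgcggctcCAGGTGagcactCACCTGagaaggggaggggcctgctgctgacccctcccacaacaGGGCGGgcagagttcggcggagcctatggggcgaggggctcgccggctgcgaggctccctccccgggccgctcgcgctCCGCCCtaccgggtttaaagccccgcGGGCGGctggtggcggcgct
Wnt5b: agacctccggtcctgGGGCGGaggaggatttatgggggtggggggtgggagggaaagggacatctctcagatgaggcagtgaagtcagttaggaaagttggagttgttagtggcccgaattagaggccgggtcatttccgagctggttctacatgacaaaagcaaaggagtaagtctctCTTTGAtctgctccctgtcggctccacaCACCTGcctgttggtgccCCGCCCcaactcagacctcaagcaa
Wnt16: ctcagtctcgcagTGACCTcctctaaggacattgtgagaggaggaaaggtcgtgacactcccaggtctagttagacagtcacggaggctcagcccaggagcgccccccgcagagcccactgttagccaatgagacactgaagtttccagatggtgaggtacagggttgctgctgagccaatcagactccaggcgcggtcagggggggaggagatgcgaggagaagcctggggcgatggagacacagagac

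The Fzd4 window holds 7 GC boxes, and Sp5 peaked 76 bases before the start with folds of 13.4 and 8.05. At Fzd7, with 6 GC boxes, the Sp5 summit lay 57 bases before the start, with folds of 11.8 and 6.31. Ror2 holds 4, with the Sp5 summit 90 bases before the start and lower folds of 4.73 and 4.44. Wnt3 holds 2, and its Sp5 region was weak, with folds of 3.17 and 3.54 and rank 10908 of the 10953 Sp5 regions. In the Wnt9b window, which holds 2 CACCTG and 3 GGGCGG matches, the Zeb2 summit lay 204 bases before the start. That region (chr11:103749695-103750303) was the strongest Zeb2 region of the members, with folds of 21.9 and 18, 278 and 100 fragments at the summit, and rank 32 of the 10172 Zeb2 regions. The Wnt5b window held summits of p300 in both stages and of Zeb2. The Zeb2 summit lay 56 bases before the start, with folds of 12.1 and 11. That window holds 1 CACCTG, 1 CTTTGA and 2 GGGCGG matches. Wnt16 has the only AGGTCA match of all member windows, and RXRα in mESC peaked 204 bases before its start, with folds of 8.48 and 6.01.

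Over all 27 member windows, GGGCGG was present in 21 (77.8%), against 42.6% of 21262 windows of all genes. CACCTG was in 8 (29.6%, against 16.9%), CTTTGA in 4 (14.8%, against 12.7%) and AGGTCA in 1 (3.70%, against 12.8%). All 8 member windows with an Sp5 summit held GGGCGG. They include the second Wnt5b start, where the Sp5 region was given to Gm52875. Across all genes it was in 87.1% of the 3902 windows with an Sp5 summit and in 32.6% of those without. GC content moved with both: its median was 71.6% in member windows and 55.6% in all, and 64.8% in windows with an Sp5 summit against 53.2% in those without. Its part in these shares was not tested. CACCTG was in 47.5% of the windows of all genes with a Zeb2 summit, against 15.4% without, and in 2 of the 3 such member windows.

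p300 regions were sorted by stage. A region of one stage was called stage-only when no peak of either library of the other stage overlapped it, shared when it overlapped a region of the other stage, and mixed when it overlapped a peak but no region of the other stage. Of the 121 gastruloid regions, 84 were gastruloid-only, 27 shared and 10 mixed. Of the 63 mESC regions, 33 were mESC-only. Gastruloid-only regions thus made up 84 of the 117 regions of a single stage (71.8%), and over all genes the share was 71.1%, so the members followed the genome. With all p300 lists cut to the length of the shortest, 35371 peaks, the count became 41 gastruloid-only against 36 mESC-only regions (53.2%, against 49.6% over all genes). At equal list length the excess of gastruloid-only regions was nearly gone. For 8 of the members with an excess it ended: it fell to 0 for Wnt2b, Wnt4, Wnt7a, Wnt9b, Fzd10, Ror1 and Ror2, and became −1 for Fzd7.

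20 of the 30 members with a stage-only region (66.7%) had more gastruloid-only than mESC-only p300 regions, against 69.8% of all such genes. 4 (13.3%) had more mESC-only regions, against 17.8%. Ligands had 39 gastruloid-only and 12 mESC-only regions, Frizzleds 20 and 9, the LRP coreceptors 6 and 4, and the ROR and RYK genes 19 and 8. Frizzleds held 15 of the 27 shared regions. 9 of the 20 kept their excess under every alternative tried: Wnt3, Wnt5a, Wnt5b, Wnt8b, Wnt9a, Wnt10a, Wnt11, Fzd2 and Fzd4. How many of all genes would keep theirs was not counted, so this number has no baseline.

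**Figure D2:**
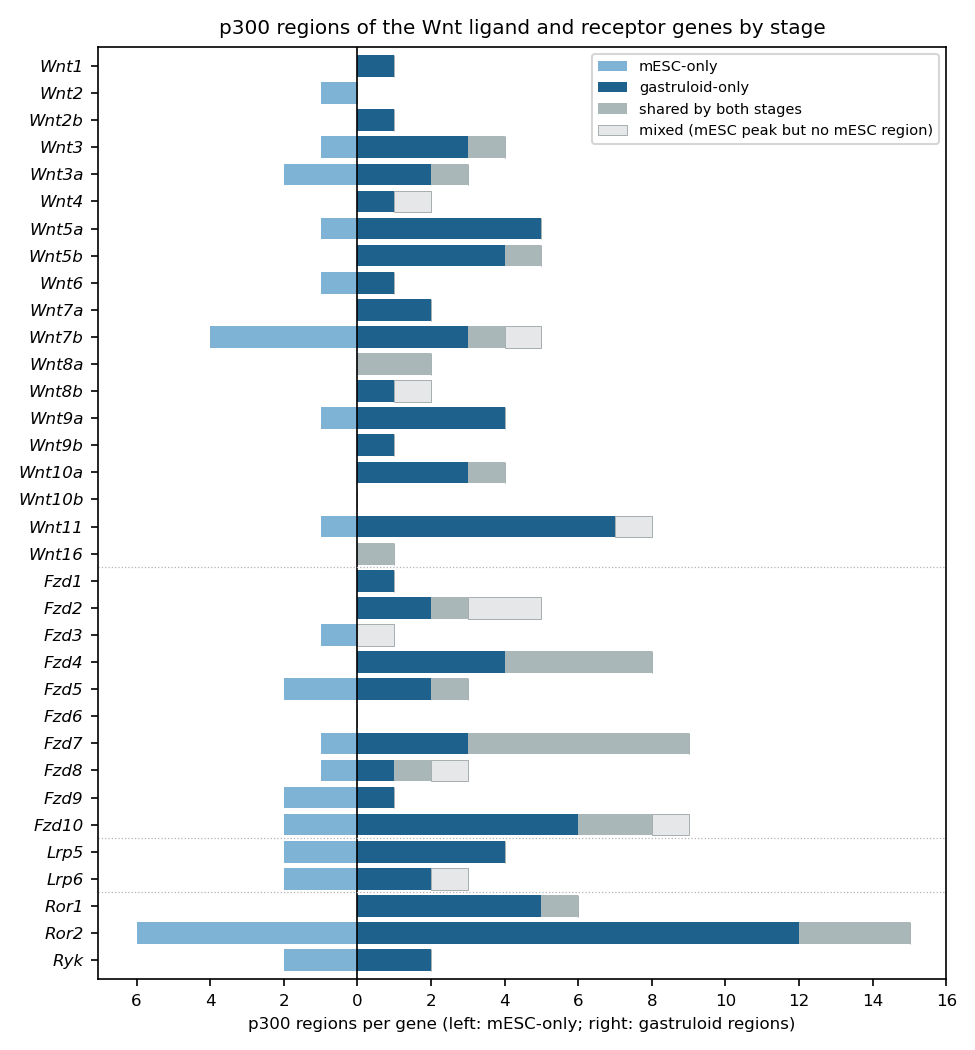
p300 regions at each member (rows): bars to the left of 0 count mESC-only regions, and stacked bars to the right count gastruloid-only, shared and mixed gastruloid regions, with dotted lines between the roles. Ror2 has the most, with 12 gastruloid-only and 6 mESC-only regions, and Fzd7 stands out by 6 shared regions.

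Among the ligands, Wnt11, which signals mainly without β-catenin and shapes the heart, had the most gastruloid p300 regions. It had 8, of which 7 were gastruloid-only, against 1 region in mESC. Its strongest lay 51.1 kb upstream of the start (chr7:98783695-98784181), with folds of 11.4 and 16.7, 57 and 76 fragments at the summit, and an Sp5 region on it. A second, 30.5 kb upstream (chr7:98804312-98805100), reached folds of 9.72 and 10.7. The region at its start was weak, with folds of 3.65 and 4.38. Sp5 and Zeb2 met p300 at a further Wnt11 region 19.6 kb upstream. By library, Wnt11 had 2 and 1 p300 peaks in mESC and 8 and 12 in gastruloids, where the p300 lists are longer. With equal list length the excess of gastruloid-only regions shrank to 3.

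Wnt5a, the main non-canonical ligand of axis extension, had no p300 region that was found in both stages. All 5 gastruloid regions were gastruloid-only, and the single mESC region was mESC-only. That mESC region (chr14:28512795-28513386) lies inside the gene, 8.46 kb from its nearer end. It had folds of 14.4 and 14.5, and an mESC RXRα region overlapped it. The strongest gastruloid region (chr14:28501142-28501776) lies 3.09 kb outside the gene, with folds of 12 and 12.3, 150 and 109 fragments, and an Sp5 region on it. A distant one, 95.1 kb from the gene (chr14:28622249-28622847), had folds of 11.9 and 10.8. No Zeb2 region and no gastruloid RXRα region was given to Wnt5a, although the first Zeb2 list holds 5 peaks there.

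Wnt5b, a close relative of Wnt5a, had 5 gastruloid p300 regions in a territory of only 44.2 kb, which at 11.3 per 100 kb was the densest of the members. The shared region at the start printed above (chr6:119449267-119449914) had folds of 9.17 and 10.2 in gastruloids and carried Sp5 and Zeb2. In mESC the same place had folds of 9.62 and 7.33. The strongest region was gastruloid-only and lies inside the gene (chr6:119438049-119438689), with folds of 11.2 and 14.6 and none of the other factors. At the 5′ end of the gene model a gastruloid-only p300 region (chr6:119543889-119544914) coincided with Sp5 and with the only gastruloid RXRα region at a ligand's gene end, which had folds of 7.55 and 4.24.

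Wnt7b, a ligand of kidney and lung growth, went the other way in number, with 3 gastruloid-only and 4 mESC-only regions. The shared region 44.1 kb from the gene (chr15:85625592-85626085) had folds of 6.29 and 7.42 in gastruloids and of 12.6 and 11.1 in mESC. mESC RXRα sat on it with folds of 20.6 and 14.7, rank 498 of 24698. 3 of the 4 mESC-only regions lie inside the gene, the strongest with folds of 8.13 and 5.63, while none of the 5 gastruloid regions does. The small mESC excess turned round when weak peaks were removed. Wnt2, a ligand of lung development, had 1 mESC-only p300 region (chr6:17977248-17977566, folds 8.09 and 5.72) and none in gastruloids. It kept that sign under every alternative.

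Wnt1 and Wnt10b are neighbours on chromosome 15, as are Wnt6 and Wnt10a on chromosome 1, Wnt3 and Wnt9b on 11, and Wnt3a and Wnt9a elsewhere on 11. A region between 2 such genes was given to the nearer, and this does not show which gene it serves. Wnt1, the ligand of the midbrain-hindbrain boundary, had a single p300 region, gastruloid-only, 4.55 kb past the gene's far end (chr15:98797956-98798645). It had folds of 21.3 and 19.5, 230 and 165 fragments, and rank 990 of 53025. Its fold was the highest of the members' gastruloid p300 regions in the first list, and in the second a Wnt10a region, at 20.3, was higher. Sp5 (10.7 and 6.33), Zeb2 (8.92 and 5.69) and RXRα (13.5 and 3.87) all had regions on it. No mESC region of p300 lies at Wnt1, and a single p300 peak was present in the first mESC library.

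Wnt10a, a canonical ligand of skin and teeth, held the strongest mESC p300 region of the members (chr1:74824769-74825465), 20.95 kb from the gene. It had folds of 23.4 and 23.1 in mESC, with 395 and 288 fragments, and remained in gastruloids with folds of 16.6 and 20.3. mESC RXRα lay on it, with folds of 16.6 and 11.6. The other 3 gastruloid p300 regions were gastruloid-only and all carried Sp5. At one of these, 12.8 kb from the gene (chr1:74816655-74817328), RXRα was bound in both stages, with folds of 15.8 and 15.2 in mESC and 19.1 and 8.70 in gastruloids, while p300 was found there in gastruloids only. Wnt6, its neighbour, had 1 gastruloid-only and 1 mESC-only region.

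Wnt3, needed for the primitive streak, had 4 gastruloid and 2 mESC p300 regions. The shared one lies inside the gene (chr11:103808658-103810462 in gastruloids), with folds of 5.62 and 8.35 there and 15.8 and 13.7 in mESC. A gastruloid-only region 8.47 kb upstream had folds of 7.43 and 13.7. p300 at the start itself was present only in gastruloids, with folds of 2.97 and 2.95, at rank 52926 of 53025 near the bottom of the list. Wnt9b, a ligand of kidney tubules, had 1 gastruloid p300 region at the start printed above, with folds of 4.31 and 4.36 and rank 49136 of 53025. A further Zeb2 region given to Wnt9b (chr11:103795451-103795941) lies within the body of Wnt3, since the gene models overlap.

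Wnt3a, the tail bud ligand, had 3 p300 regions in each stage, with 1 shared. 2 of the 3 in gastruloids carried Zeb2, one inside the gene (chr11:59263837-59264833, p300 folds 9.99 and 10.04) and one 8.75 kb past its end. RXRα was found at the latter in both stages. Sp5 peaked 243 bases before the start, where no p300 region was found. Wnt9a, on the other side, had 4 gastruloid-only regions. The strongest, 2.97 kb past the gene (chr11:59336218-59336754), had folds of 14.9 and 19.1, and a second at 10.1 kb (chr11:59343417-59343823) folds of 11.1 and 15.7. Neither carried Sp5, Zeb2 or RXRα.

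The remaining ligands had few regions. Wnt8a, a ligand of the early streak, had the same 2 p300 regions in both stages, and Zeb2 lay on both in gastruloids. mESC RXRα at the nearer one, 0.32 kb from the gene, reached folds of 22.6 and 15.5, rank 290. Wnt16 had 1 shared intragenic p300 region, with folds of 13.9 and 18.9 in gastruloids and 17.5 and 17.4 in mESC. Wnt8b, a forebrain ligand, had a gastruloid-only region near its far end, with folds of 8.50 and 9.78 and Sp5 on it. Wnt4, of kidney and gonad, had a mixed region 0.71 kb before its start, again with Sp5. Wnt2b had 1 and Wnt7a 2 gastruloid-only regions with folds below 6.

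Fzd7, a Frizzled of pluripotent cells and the early embryo, had 9 gastruloid and 7 mESC p300 regions, of which 6 were common to both stages. The common region 9.36 kb upstream (chr1:59472598-59472993 in gastruloids) had folds of 6.21 and 9.0 there and 15.3 and 12.8 in mESC. It carried Zeb2 in gastruloids and RXRα in mESC. Another, 58.8 kb upstream, had folds of 7.71 and 6.44 in gastruloids and 13.4 and 11.8 in mESC. The gastruloid-only regions had folds between 3.80 and 7.43, and include the one at the start with Sp5. With equal list length the balance of stage-only regions turned to an mESC excess of 1.

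Fzd10, another Frizzled with many regions, had 9 gastruloid and 5 mESC regions. The region 0.71 kb before its start (chr5:128599974-128600907) is shared and was bound by every factor. p300 had folds of 9.84 and 11.7 in gastruloids, with 250 and 233 fragments, and 5.59 and 5.23 in mESC. There Sp5 had folds of 10.6 and 8.37, Zeb2 4.74 and 3.50, and RXRα 10.2 and 7.79 in gastruloids and 6.32 and 3.27 in mESC. A mixed region 50.1 kb upstream (chr5:128550650-128551268) was stronger for p300, with folds of 13.1 and 15.4, and had none of the 3 factors. Equal list length left Fzd10 with no excess of either stage.

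Fzd4, the receptor of Norrin in the retinal vessels, had 8 gastruloid and 4 mESC p300 regions, and all 4 of the mESC regions were shared. 65.8 kb upstream (chr7:89338304-89338959) a gastruloid-only p300 region of modest height, with folds of 4.50 and 5.33 and 25 and 22 fragments, carried Sp5, Zeb2 and RXRα. The Sp5 region there had folds of 16.1, the highest of the members in the first list, and 7.28, below the 10.7 of an Fzd9 region in the second. There gastruloid RXRα had folds of 19.2 and 7.24. RXRα was present at this place in mESC too, with folds of 5.01 and 6.27. Closer to the gene, at 62.3 kb, mESC RXRα was stronger, with folds of 22.5 and 15.4, and p300 was shared, with folds of 15 and 15.6 in mESC. A gastruloid-only region 13.3 kb past the gene (chr7:89422825-89423792, folds 13 and 12.8) held Zeb2 and 1 of the 2 gastruloid-only RXRα regions of the members, the other being at Wnt1.

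The other Frizzleds differed in kind. Fzd2 had 5 gastruloid p300 regions and 1 in mESC. Its strongest (chr11:102624180-102624764), 16.4 kb from the gene, had folds of 14.8 and 19.5, with 173 and 185 fragments, and Sp5. Fzd2 had 4 Sp5 and 4 Zeb2 regions, which no member exceeded. Fzd3, of axon guidance, had 1 gastruloid p300 region, within its body (chr14:65245272-65245947, folds 15.8 and 15.8). On it lay a gastruloid RXRα region with folds of 30.2 and 8.35, 160 and 17 fragments, and rank 70 of 2352. The first of these folds was the highest of the members, while in the second list a Wnt10a region was higher, at 8.70. In mESC RXRα was at the same place with folds of 10.5 and 4.68. The p300 region there is mixed, so an mESC p300 peak but no mESC region overlapped it, and the single mESC p300 region of Fzd3, mESC-only, lies elsewhere.

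Fzd9 was the only member with an mESC p300 region at a gene end and no gastruloid one. It had 2 mESC-only regions, with folds of 6.12 and 5.15 within the gene and 6.41 and 4.64 at 19.5 kb upstream, both with mESC RXRα. Its gastruloid-only region (chr5:135253637-135254243), 2.83 kb upstream, had folds of 10.7 and 13.5 and Zeb2. Fzd5, an eye receptor, had 2 regions of each single stage, with the strongest in mESC at folds of 11.3 and 11.8. Its start region was gastruloid-only, with folds of 5.79 and 8.03, and carried Sp5 with folds of 12.4 and 7.23. Fzd8 had a gastruloid-only region at its end with folds of 10.6 and 11.5 and an mESC-only region 15.3 kb away with folds of 18 and 17.2. Fzd1 had 1 region, at its start, gastruloid-only with Sp5 and folds of 8.86 and 8.64.

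The coreceptor genes had no shared p300 region. Lrp5 had 4 gastruloid-only regions, all inside the gene, the strongest (chr19:3632682-3633137) with folds of 15.9 and 13.2. Its 2 mESC-only regions are also intragenic, with folds up to 11.1 and 9.49. Lrp6 had 3 gastruloid regions, among them one at the gene end with folds of 6.73 and 5.36, and 2 mESC-only ones. The stronger of these (chr6:134579400-134580034), 12.8 kb outside the gene, had folds of 17 and 15.6 with mESC RXRα on it. No gastruloid p300 region of either gene carried Sp5, Zeb2 or RXRα.

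Ror2, a receptor of Wnt5a, had the most p300 regions of any member, 15 in gastruloids and 11 in mESC, all inside the gene, in a territory of 263 kb. 12 of the 15 were gastruloid-only and 6 of the 11 mESC-only. By library it had 15 and 11 p300 peaks in mESC and 20 and 20 in gastruloids. The strongest gastruloid region (chr13:53142833-53143598) had folds of 11.8 and 14.7 and lay on the gene's only gastruloid RXRα region, with folds of 20.7 and 8.09. RXRα in mESC had 7 regions. The one 51.2 kb past the start (chr13:53234522-53235189) had folds of 24.9 and 21.6 and 719 and 387 fragments, and was the strongest mESC RXRα region of the members, at rank 143 of 24698. p300 was shared there, with folds of 13.6 and 12.2 in mESC and 8.47 and 9.94 in gastruloids, where Zeb2 also had a region and neither RXRα list had a peak. Equal list length left Ror2 with as many regions of one stage as of the other.

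Ror1 had 6 gastruloid p300 regions, 5 of them gastruloid-only, and 1 in mESC. The strongest (chr4:100096895-100097850), 1.81 kb into the gene, was shared, with folds of 12.5 and 12.4 in gastruloids and 9.38 and 7.20 in mESC. With equal list length its excess of gastruloid-only regions went from 5 to 0. No RXRα, Sp5 or Zeb2 region was given to Ror1, although its replicate lists held 5 and 1 Zeb2 peaks, 3 and 0 Sp5 peaks and 2 and 0 gastruloid RXRα peaks. Ryk had 2 gastruloid-only and 2 mESC-only p300 regions with folds from 3.82 to 6.43. It had no Sp5 or Zeb2 region, with 2 and 0 Sp5 peaks and 6 and 0 Zeb2 peaks in the replicate lists.

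**Figure D3:**
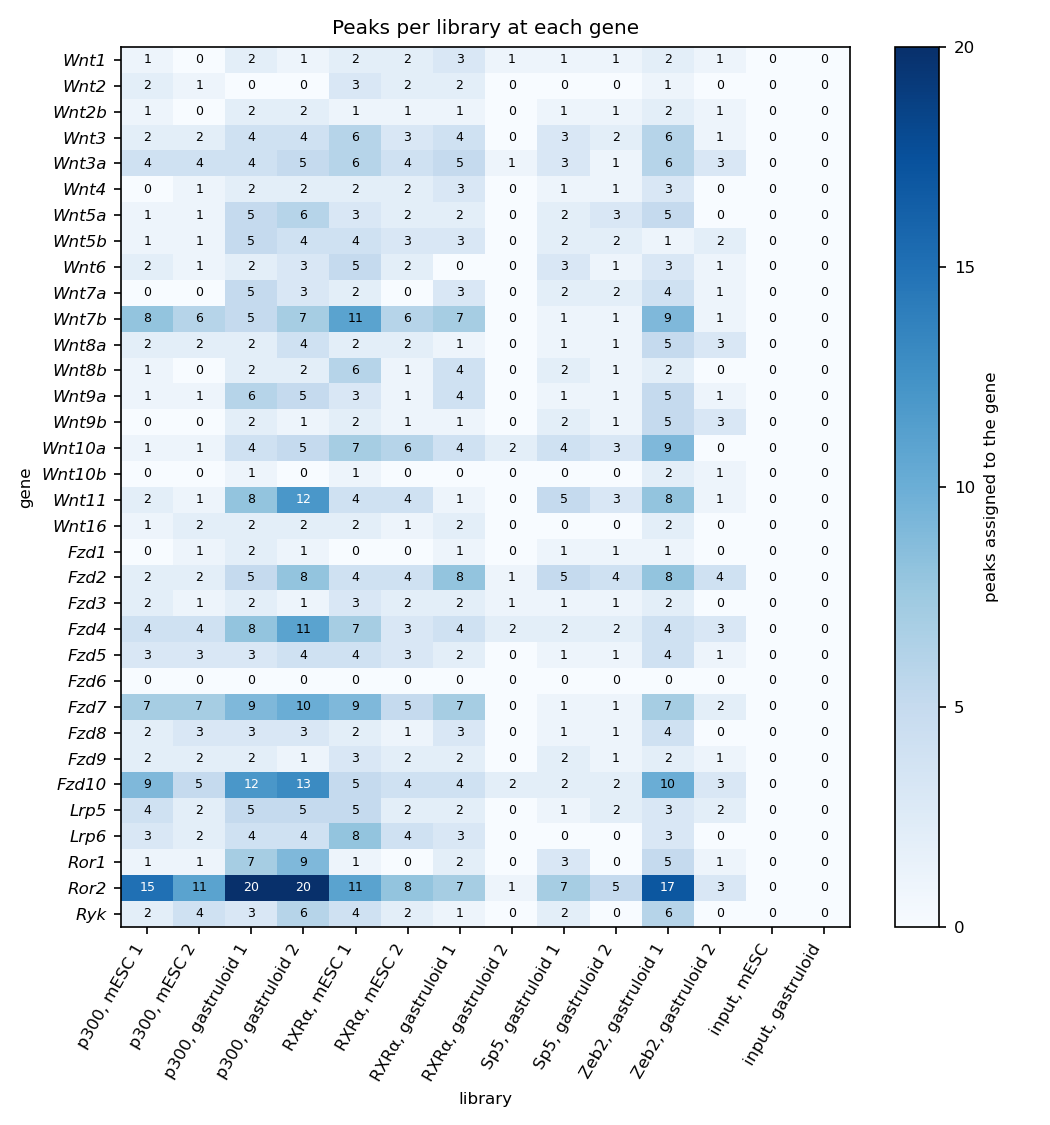
Number of peaks given to each member (rows) in each of the 14 libraries (columns), printed in each cell and shown by shade. The 20 and 20 p300 peaks of Ror2 in gastruloids are the highest cells, the second RXRα gastruloid library is nearly empty with 11 peaks in all against 98 in the first, and the inputs hold 0.

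A p300 region at a gene end, within 1 kb, was found in gastruloids for 17 members (50%), against 41.5% of all genes, and in mESC for 6 (17.6%), against 9.78%. 12 members had one in gastruloids only: Wnt3, Wnt4, Wnt5b, Wnt8b, Wnt9a, Wnt11, Fzd1, Fzd5, Fzd8, Lrp6, Ror2 and Ryk. 5 had one in both stages, Wnt8a, Fzd2, Fzd4, Fzd7 and Fzd10, of which 4 are Frizzleds. With equal list length 9 members had a gastruloid gene-end region. Neither the split of gene-end regions by stage nor this last count was taken over all genes, so they have no baseline. Counted by regions, 18 of the 121 in gastruloids (14.9%) lay at a gene end, against 22.5% of all p300 regions given to a gene, and 6 of the 63 in mESC (9.52%), against 8.85%. The members' gastruloid p300 regions were thus mostly distal (103 of 121), as were those of all genes (32930 of 42515). The median distance to the gene end was 14362 bases in gastruloids, against 11412 bases over all genes. Beyond 50 kb lay 24 of the 121. Regions beyond 50 kb or inside the gene were not counted over all genes. Of the ligands' regions 27.5% lay inside the gene, of the Frizzleds' 12.5%, of the LRP genes' 85.7% and of the ROR and RYK genes' 95.7%.

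**Figure D4:**
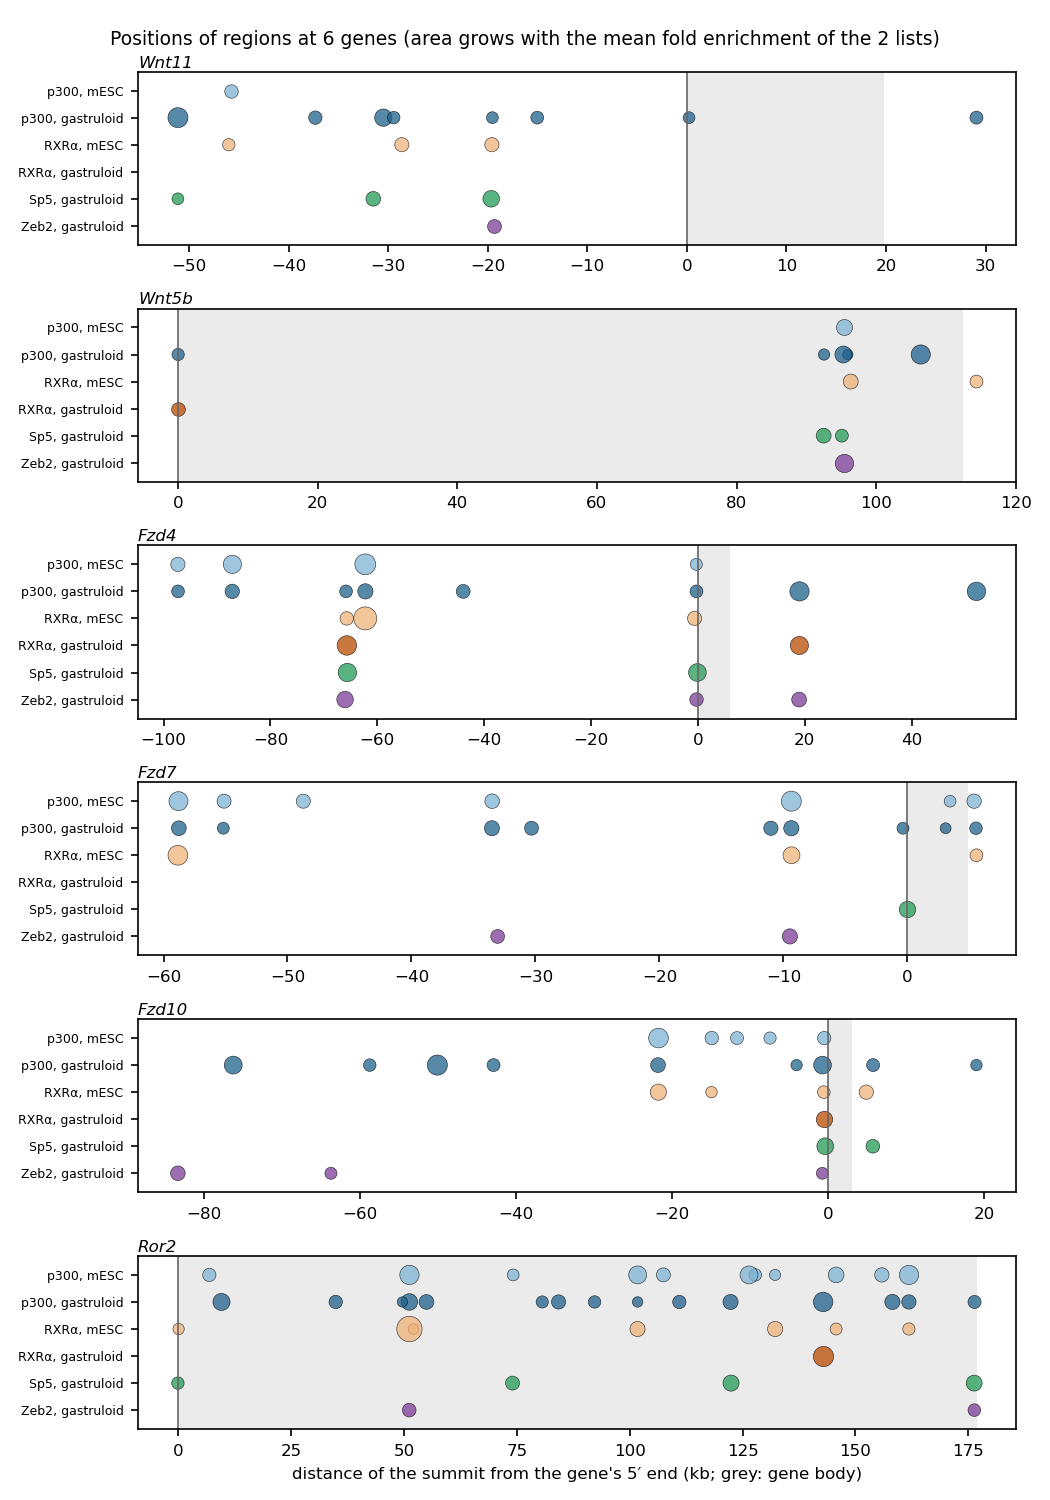
Distance of each region's summit from the 5′ end of its gene (horizontal axis, kb) in the 6 groups (rows of each panel) for Wnt11, Wnt5b, Fzd4, Fzd7, Fzd10 and Ror2, with the gene body in grey and point area growing with the mean fold of the 2 replicates. All p300 points of Ror2 fall in the gene body, while those of Fzd4, Fzd7 and Fzd10 are spread upstream, at Fzd4 to 97.3 kb.

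Sp5 lay on 31 of the 121 gastruloid p300 regions (25.6%), against 20.9% of all such regions. Zeb2 lay on 22 (18.2%), against 17.1%, and on 69 (57%) by its first list alone, against 45.2%. RXRα lay on 10 (8.26%), against 4.28%, and on 49 (40.5%) by its first list alone, against 33.6%. At gene ends Sp5 was on 13 of 18 (72.2%, against 63.3% over all genes) and Zeb2 on 5 of 18 (27.8%, against 41.6%). Sp5 was at 18 of the 103 distal regions (17.5%, against 8.58%) and Zeb2 at 17 of them (16.5%, against 10.03%). The ligands held 18 of the 31 regions with Sp5 and the Frizzleds 11. Frizzleds and ligands each held 10 of the 22 with Zeb2. 76 regions had none of the 3 factors (62.8%, against 70.4% over all genes), 30 had 1 and 12 had 2. All 3 factors lay on 3 of the 121, against 616 of 42515 over all genes. These are the regions of Wnt1, Fzd4 and Fzd10 described above. Seen from the factors, p300 was present at 31 of the members' 41 Sp5 regions (75.6%, against 84.9% over all genes) and 23 of their 35 Zeb2 regions (65.7%, against 78.1%). It was at 10 of their 11 gastruloid RXRα regions (90.9%, against 86.0%). The Zeb2 regions at Wnt10b, Wnt2b and Wnt7a had no p300 region on them.

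**Figure D5:**
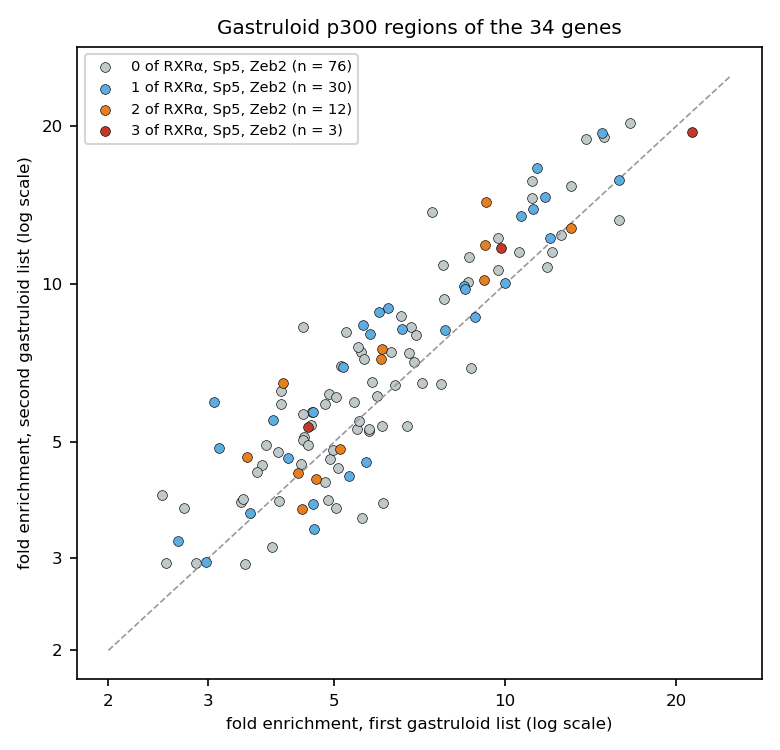
Fold enrichment of the members' 121 gastruloid p300 regions in the first list (horizontal axis, log scale) and the second (vertical axis, log scale), coloured by how many of RXRα, Sp5 and Zeb2 have a region there, with a dashed line where both are equal. Median mean folds are 5.70 for 76 regions with none, 7.19 for 30 with 1, 5.94 for 12 with 2 and 10.8 for the 3 with all, and the classes overlap.

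The members had 73 RXRα regions in mESC and 11 in gastruloids. Of the 73, 34 were mESC-only, 32 mixed and 7 shared. Regions of a single stage that were gastruloid-only numbered 2 of 36 (5.56%), against 2.58% over all genes. With the first gastruloid list alone 41 member regions were gastruloid-only, so the split depends on the short second list. With all RXRα lists cut to the length of the shortest, 6 were gastruloid-only and 7 mESC-only. Neither alternative was counted over all genes. Of the 73 mESC regions, 39 (53.4%) overlapped a peak in the first gastruloid list and 7 (9.59%) one in the second. Over all genes the shares were 36.2% and 6.81%. In mESC, 29 of the 63 p300 regions (46%) carried RXRα, against 37.6% over all genes. Among p300 regions kept in both stages 17 of 27 carried mESC RXRα (63.0%, against 52.0% over all genes), and among mESC-only ones 12 of 33 (36.4%, against 23.9%).

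The replicate folds ranked the members' regions alike. Spearman's rho between the 2 lists, as a description over regions, was 0.92 for the 63 mESC p300 regions, 0.87 for the 121 in gastruloids, 0.83 for mESC RXRα, 0.79 for gastruloid RXRα and for Sp5, and 0.69 for Zeb2. The median number of fragments at a summit ran from 17 in the second RXRα gastruloid and the second Zeb2 library to 81 in the first RXRα gastruloid library. Peaks in a single replicate were lower. In the first Zeb2 list 121 of 156 member peaks were absent from the second, with a median fold of 3.71 against 5.76 for those in regions.

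The rest of the pathway, 52 genes in 7 lists, showed a like split with the lists at their full length. It had 255 gastruloid p300 regions, with 183 gastruloid-only against 52 mESC-only (77.9% of the regions of a single stage, and 71.8% for the ligands and receptors). 38 of the 52 genes had more gastruloid-only regions and 3 more mESC-only, while 5 had neither class. Of all genes with a stage-only region, 69.8% had more gastruloid-only ones. For these 52 genes no counts were made with lists of equal length, where the members' excess was nearly gone. All 8 nuclear genes (TCF/LEF, BCL9 and PYGO) had more gastruloid-only regions, with 18 gastruloid regions at Tcf7l2 and 16 at Tcf7l1. Axin2, a feedback inhibitor and common readout of Wnt activity, had 9 gastruloid-only and 0 mESC-only regions. Znrf3 and Rnf43, the ubiquitin ligases that remove Frizzleds from the surface, had Zeb2 on 9 of their 23 gastruloid p300 regions (39.1%), and the planar polarity genes on 14 of 40 (35%), against 18.2% for the ligands and receptors. The other 5 lists ranged from 8.16% to 21.6%, and all 52 genes together had 20.4%. In the planar polarity list Prickle1 had 12 and Prickle2 10 gastruloid p300 regions, 10 of them gastruloid-only at each.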

How the data were processed

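ChIP-seq peak lists of 14 libraries were used: 12 immunoprecipitations in 6 groups of 2 replicates, and 2 inputs. Per the submitters' processing notes, fastp 0.20.1, BWA 2.2.1 and MACS2 2.2.7 were used with GRCm38.p6 (also named mm10), with no role or order stated, and whether an input served as control is not given in the sources used here. The deposited lists, 1 per library, hold for each peak the authors' score, fold enrichment at the summit as a ratio, and −log10 of p and q. Reads were not used here. Depth is therefore known only at summits: the number of fragments was solved from the authors' fold and −log10 p under MACS2's Poisson model, and came out whole within 0.01 for 688 of 688 peaks of the members' regions.

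Peaks on the 21 main chromosomes that overlapped no input peak were merged by 1 base or more within a group, and stretches with a peak in both replicates were kept as regions. Each was given to the protein-coding RefSeq gene with the nearest end within 100 kb. Overlaps between maps also needed 1 base. A gene-end or start region had its summit within 1 kb. Motifs were sought on both strands in the 250 bases before each start.

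The members, and the lists of 52 other pathway genes, were chosen with earlier results of these data known. Genes were named by a rule: in each role the 3 with the most gastruloid p300 regions (ties kept), the largest mESC-only excess, gene-end binding in a single stage, no region in any map, a region with all factors, the strongest region of each map (by the higher of its 2 replicate folds), and neighbouring members as pairs. Details of other members were added to account for all 34, after their values were seen. Shares are set beside the same shares over all genes, and no test was run. Alternatives were −log10 q of at least 5, input peaks kept, the strongest summit by −log10 q, overlap of at least 50% of the shorter peak, assignment within 20 kb, gene ends within 5 kb, lists cut to the shortest of a factor, and each replicate left out. The code was tested on simulated data, where 3000 of 3000 planted sites got their class and 2982 of 2982 regions their gene. Python 3.11.15, pandas 2.3.3, numpy 2.4.6 and matplotlib 3.10.9 were used.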

Additional observations from a re-analysis of the deposited data

Results flagged for a closer look

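At 4 members every p300 library of one stage lay apart from the other stage and RXRα moved the opposite way, with more p300 peaks and fewer RXRα peaks in both gastruloid libraries than in both mESC libraries. This difference between the factors was not tested, and the RXRα side rests in part on the short second gastruloid list. The same pattern was met by 1620 of the 21883 protein-coding genes (7.40%), against 4 of 34 members (11.8%). The gastruloid p300 lists are also longer than those of mESC. With p300 lists of equal length the gastruloid-only minus mESC-only p300 regions came to 3 for Wnt11, 2 for Wnt10a, 0 for Ror2 and −1 for Lrp6. Wnt10a had 4 and 5 p300 peaks in gastruloids and 1 and 1 in mESC, against 4 and 2 RXRα peaks in gastruloids and 7 and 6 in mESC. Wnt11 had 8 and 12 p300 peaks in gastruloids and 2 and 1 in mESC, against 1 and 0 RXRα peaks in gastruloids and 4 and 4 in mESC. Lrp6 had 4 and 4 p300 peaks in gastruloids and 3 and 2 in mESC, against 3 and 0 RXRα peaks in gastruloids and 8 and 4 in mESC. Ror2 had 20 and 20 p300 peaks in gastruloids and 15 and 11 in mESC, against 7 and 1 RXRα peaks in gastruloids and 11 and 8 in mESC. The pattern requires both RXRα gastruloid libraries, the longer first list included, to lie below both mESC libraries. The low counts of the first list are thus part of the choice and no separate check.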

How the results depend on the processing

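No test was run, paired or not. The labels number the replicates and give no link between libraries of the stages that could serve as a pairing. Of the values that answer a comparison, 151 under an alternative stayed within 1.5 times their main value and 27 did not. The 151 include every value with input peaks kept and with the strongest summit by −log10 q. Neither alternative changed any value, and no input peak was given to a member, so these add little. With the lists of one factor cut to its shortest list, the members had 41 gastruloid-only p300 regions, 6 gastruloid-only, 7 mESC-only and 1 shared RXRα region, 12 members with more gastruloid-only p300 regions, 9 with a gastruloid gene-end region and 8 with an mESC RXRα region. Sp5 then lay on 11, Zeb2 on 12 and RXRα on 6 gastruloid p300 regions. With −log10 q of at least 5, RXRα had 0 gastruloid-only and 5 shared regions, Zeb2 lay on 12 p300 regions, and the members had 7 peaks in the second RXRα gastruloid list and 96 and 19 in the Zeb2 lists. Assignment within 20 kb left 51 gastruloid-only and 16 shared p300 regions, and a gene-end window of 5 kb gave 14 members with one in mESC. Leaving out a replicate, which keeps every peak of the remaining list, gave 87 to 123 gastruloid-only, 34 to 45 mESC-only and 28 to 34 shared p300 regions, and 19 to 28 members with more gastruloid-only ones. Members with a gene-end p300 region then numbered 17 to 24 in gastruloids and 8 in mESC, and those with any p300 region 31 to 32 and 27 to 28. Sp5 lay on 31 to 38, Zeb2 on 22 to 69 and RXRα on 10 to 49 of the p300 regions, where the highest Zeb2 and RXRα values come from leaving out the second gastruloid list. RXRα had 2 to 41 gastruloid-only, 34 to 86 mESC-only and 7 to 40 shared regions: 41 and 40 came without the second gastruloid list, 86 without the second mESC list, and 66 mESC-only without the first gastruloid list. Members with a region numbered 29 to 32 for mESC RXRα, 8 to 31 for gastruloid RXRα, 27 to 29 for Sp5 and 22 to 33 for Zeb2, again with 31 and 33 from the first list alone. The difference of gastruloid-only minus mESC-only p300 regions reversed for Fzd7, to −1 with lists of equal length, and for Wnt7b, to 2 with −log10 q of at least 5; without single p300 replicates Wnt7b ran from −3 to 1, the latter without the first gastruloid replicate. The fragments behind a summit, 6 to 719, limit what a list can show: the second RXRα and Zeb2 gastruloid lists have a median of 17, and absence from them was not detectable as absence of binding.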
